A study of Homo sapiens with 8 samples.

Results

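The 47 genes described here encode subunits of the 5 oxidative phosphorylation complexes. They were taken by name from a count table of 34415 gene symbols, 34 of them encoded in the nucleus and 13 in the mitochondrial genome, which is the full set of mitochondrial protein genes. All 47 were in the table, and all 47 passed the filter on low counts among the 13572 genes tested. The least abundant member in any library still had 1746 counts. The rule lists them by name and uses no measured value.

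In oxidative phosphorylation, complexes I (NADH dehydrogenase) and II (succinate dehydrogenase) pass electrons to complex III (the cytochrome bc1 complex) and on to complex IV (cytochrome c oxidase), and complex V (ATP synthase) makes ATP from the resulting proton gradient. Complexes I, III, IV and V are built from subunits of both genomes, while every subunit of complex II is nuclear. The mitochondrial genes are transcribed as long precursors from both strands of a circular genome and cut into separate RNAs, whereas each nuclear subunit has a promoter of its own.

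RNA was sequenced from HaCaT cells, an immortalized human keratinocyte line, in 8 cultures between passages 21 and 33. In the siETV4 group (4 cultures) a small interfering RNA against the ETS-family transcription factor ETV4 had been transfected for 48 h, and in the siNC group (4 cultures) a negative-control small interfering RNA. Both groups spent 96 h in 35 mM glucose instead of the 5.5 mM of the basal medium, so every value below compares the siRNAs within high glucose, in a single cell line. The measurements were made on bulk RNA, in which fewer cells of a kind and less RNA per cell cannot be told apart.

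The libraries held 35057643 to 41657753 counts. ETV4 itself stood at 1.83 to 3.10 CPM (counts scaled to a common library size) in siETV4 and 19.8 to 32.0 CPM in siNC, with the lowest siNC value in replicate 4. All 6 keratinocyte markers were detected, at a summed 2500 to 2780 CPM in siETV4 and 2670 to 3100 CPM in siNC. Fibroblast markers summed to at most 6.44 CPM in any library, with COL1A2 and LUM at 0, melanocyte markers to at most 2.29 CPM, with MLANA and TYR at 0, and immune markers to at most 0.856 CPM, with PTPRC at 0. The 3 endothelial markers summed to 15.2 to 21.9 CPM in siETV4 and 14.0 to 18.3 CPM in siNC, nearly all of it from CDH5 (18.5 and 14.8 CPM on average), while VWF averaged 0.753 and 1.07 CPM and PECAM1 0.0182 and 0.0061 CPM. The part of these levels in the results below was not tested.

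The mitochondrial genes sit next to each other, and a few share bases, which bears on how their reads can be assigned. The gene length implied by the deposited FPKM values equalled the GENCODE v29 length in all 13 of them, so the unprefixed symbols (COX1, COX2, ATP6) are the mitochondrial genes. The largest overlap is that of ATP8 with ATP6, the 2 mitochondrial subunits of ATP synthase, at chrM:8527-8572 on the plus strand. A shorter overlap joins ND4L to ND4, 2 membrane subunits of complex I, at chrM:10760-10766, and is shown with the bases around it (chrM:10745-10781). The stretches below are from GRCh38, 5′ to 3′. Capitals mark the start codon of the downstream gene (ATG) and the stop codon of the upstream gene (TAG in ATP8, TAA in ND4L).
ATP8/ATP6 overlap: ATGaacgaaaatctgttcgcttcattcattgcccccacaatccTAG
ND4L/ND4 overlap: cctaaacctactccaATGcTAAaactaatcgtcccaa
Reads over these 46 and 7 shared bases belong to both genes of a pair. The ratio of ATP8 to ATP6 in FPKM ran from 0.306 to 0.441 over the 8 libraries, and that of ND4L to ND4 from 0.617 to 0.690. ND6 is the only 1 of the 13 encoded on the minus strand (chrM:14149-14673). Whether strand was used in counting is not given in the sources here, and opposite-strand reads over ND6 cannot be told apart from its own.

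The question asked of the counts was whether the siRNA against ETV4 changed the RNA of these subunits, and whether both genomes and all complexes moved alike. In edgeR's quasi-likelihood test, with p adjusted over all genes tested by the Benjamini-Hochberg method, 0 of the 47 members passed an adjusted p of 0.05, where 0.236% of all genes did. At an unadjusted p under 0.05 stood 4 members (8.51%), against 12.6% of all genes: SDHA, COX6A1 and ATP6 with lower means in siETV4 and UQCRC2 with a higher mean. DESeq2 also called 0 members (1.64% of all genes), with 3 at an unadjusted p under 0.05 against 13.6% of all genes. With limma-voom 0 members passed (0.309% of all genes), and 6 stood at an unadjusted p under 0.05 against 13.4%. None of these shares stood above the background of its own test.

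The estimates themselves leaned to lower values in siETV4, more so in the mitochondrial genome. The log2 fold change (siETV4 minus siNC) was negative in all 13 mitochondrial members and in 25 of the 34 nuclear members (73.5%), compared with 51.6% of all genes tested. Its median was -0.22 over the mitochondrial members, -0.08 over the nuclear members and -0.01 over all genes tested, while the median standard error was 0.14 for a mitochondrial and 0.11 for a nuclear member. The nuclear median was -0.02 without siNC replicate 2, -0.03 without siNC replicate 3 and -0.05 without siETV4 replicate 1. It was -0.15 without siETV4 replicate 2 and -0.155 without siNC replicate 4. The mitochondrial median was -0.12 without siNC replicate 1 and -0.14 without siETV4 replicate 3, and it reached -0.31 with another library left out. The mitochondrial estimates lay between -0.32 and -0.13, and the nuclear ones were spread from -0.41 to 0.33. The mitochondrial median minus the nuclear median was -0.14. This difference was -0.02 without siNC replicate 1, -0.08 without siETV4 replicate 3 and -0.09 without siETV4 replicate 2, and it was -0.25 without siETV4 replicate 4 and -0.22 without siNC replicate 2. Members of a genome are measured in the same 8 libraries and are not independent of each other, so that a shared sign is not a count of separate observations. The groups overlapped in every mitochondrial member and in all nuclear members but NDUFB5, where 6.55% of all genes tested had groups that did not overlap.

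**Figure D1:**
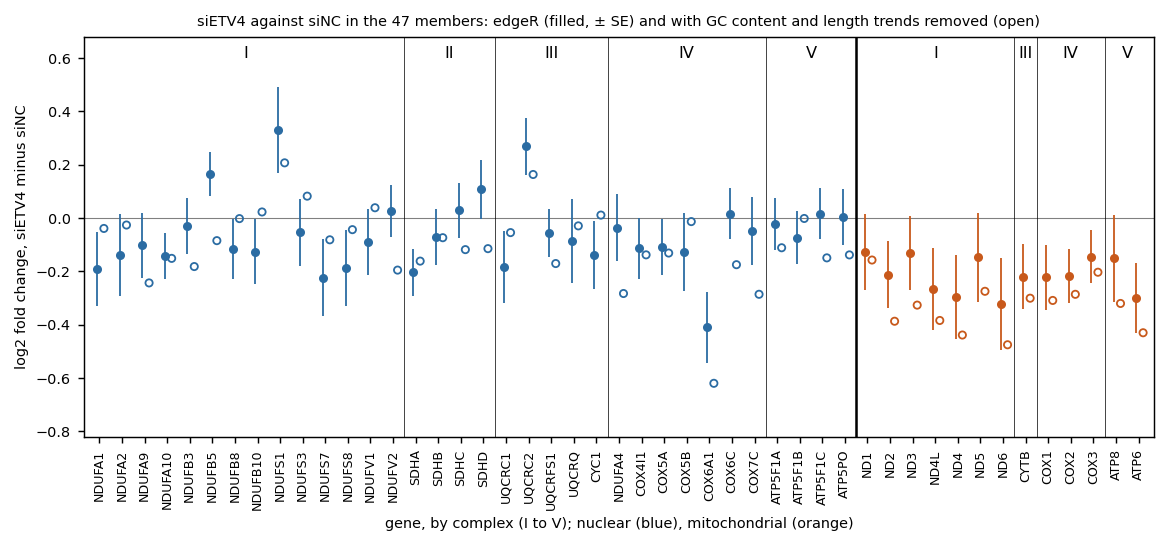
Log2 fold change (siETV4 minus siNC) of the 47 members on the y axis, ordered along the x axis by genome and complex (I to V); filled points with bars are edgeR estimates ± SE, and open points are estimates after removal of each library's trend with GC content and length. All 13 mitochondrial points (orange) lie below 0, between -0.32 and -0.13, and the nuclear points (blue) range from -0.41 (COX6A1) to 0.33 (NDUFS1).

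The 2 genomes differed in level by far more than the siRNAs did. Per length, the mitochondrial members stood at a mean of 410 (ND6) to 8804 FPKM (COX2) over the 8 libraries, and the nuclear members at 8.62 (NDUFS1) to 830 FPKM (ATP5F1B). In complex IV the mitochondrial core subunits COX1, COX2 and COX3 stood at 6860, 8804 and 8315 FPKM, while the 7 nuclear members ran from 97.3 (COX6C) to 473 FPKM (COX4I1). In complex I the mitochondrial members ranged from 410 to 3044 FPKM (ND4), and the nuclear ones from 8.62 to 340 FPKM (NDUFA1). CYTB, the single mitochondrial subunit of complex III, stood at 2460 FPKM, and the 5 nuclear members of that complex at 61.2 (UQCRFS1) to 253 FPKM (CYC1). ATP6 and ATP8 stood at 4291 and 1498 FPKM. FPKM divides by the gene length in the authors' annotation, which was 11774 bases for NDUFS1 and 421 bases for NDUFA1, so these levels depend on the gene models as well as on the reads.

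**Figure D2:**
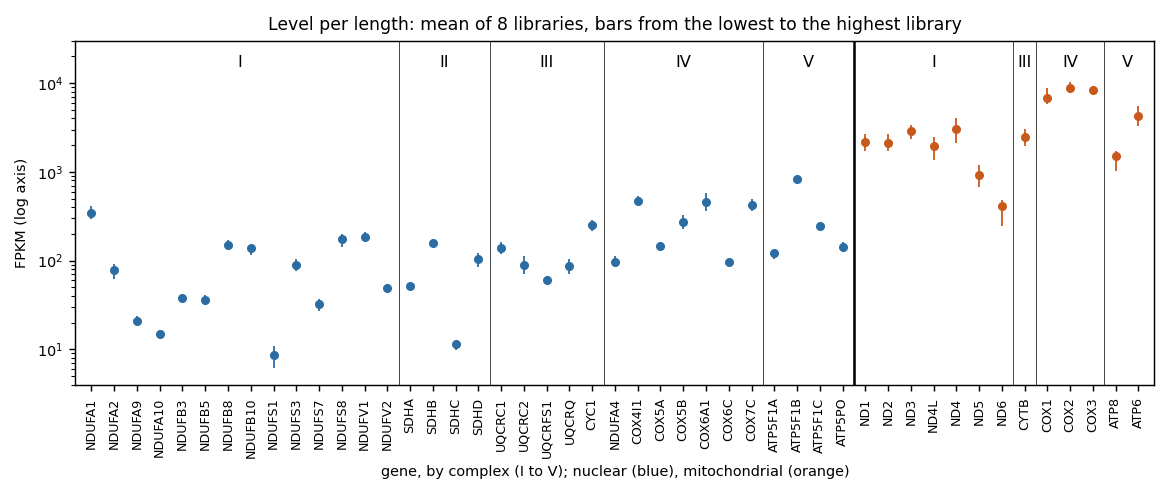
Level per length (FPKM, log axis) of each of the 47 members, as the mean of the 8 libraries with bars from the lowest to the highest library; nuclear genes are blue, mitochondrial genes orange, and roman numbers give the complex. The mitochondrial genes run from 410 (ND6) to 8804 FPKM (COX2), and the nuclear genes from 8.62 (NDUFS1) to 830 FPKM (ATP5F1B).

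Among the mitochondrial members, ATP6, the proton channel subunit of ATP synthase, had the smallest p. It stood at 2605, 2635, 2122 and 3143 CPM in siETV4 replicates 1 to 4 and at 3862, 3006, 3262 and 2803 CPM in siNC replicates 1 to 4. The groups overlapped, with siETV4 replicate 4 above siNC replicates 2 and 4. The log2 fold change was -0.30 (SE 0.13) with an edgeR adjusted p of 0.393. Its neighbour ATP8, a small membrane subunit of the same complex, had a log2 fold change of -0.15 (SE 0.16). COX2, which carries the copper site that takes electrons from cytochrome c, stood at 5265, 6044, 5165 and 5855 CPM in siETV4 and at 7087, 6556, 6826 and 5501 CPM in siNC. Of the siNC libraries only replicate 4 fell within the range of siETV4. For COX2 the log2 fold change was -0.22 (SE 0.10) with an edgeR adjusted p of 0.403.

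COX3, a core subunit of complex IV without redox centres, was the second most abundant member per length and had a log2 fold change of -0.14 (SE 0.10, edgeR adjusted p 0.552). COX1, the catalytic subunit with the oxygen-binding site, had -0.22 (SE 0.12). In complex I the 7 mitochondrial members, which build its proton-pumping membrane arm, had a median log2 fold change of -0.21, between -0.32 (ND6) and -0.13 (ND1). ND6 stood at 189, 212, 124 and 242 CPM in siETV4 and at 251, 241, 263 and 206 CPM in siNC. Its lowest value by a wide margin was that of siETV4 replicate 3, and siETV4 replicates 2 and 4 lay above siNC replicate 4. ND6 had an estimate of -0.32 on the log2 scale (SE 0.17) with an edgeR adjusted p of 0.454. As the only minus-strand gene it was set beside its neighbour ND5: the FPKM ratio of ND6 to ND5 was 0.420 ± 0.050 (SD, n = 4) in siETV4 and 0.486 ± 0.081 (SD, n = 4) in siNC, and the groups overlapped. CYTB, the cytochrome b of complex III, had a log2 fold change of -0.22 (SE 0.12).

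The mitochondrial genes took 3.77%, 3.83%, 3.38% and 4.50% of the counts in siETV4 replicates 1 to 4 and 5.04%, 3.98%, 4.39% and 3.98% in siNC replicates 1 to 4. The means were 3.87% ± 0.465 in siETV4 and 4.35% ± 0.501 in siNC (SD, n = 4 each), and siETV4 replicate 4 lay above 3 of the 4 siNC libraries. The difference of -0.478 percentage points was about as large as the SD within either group. It ranged from -0.689 to -0.247 when each library was left out in turn.

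The 13 mitochondrial members moved together from library to library. Of the 8 libraries, siNC replicate 1 had the highest value in 11 of them and siETV4 replicate 3 the lowest in 12. The nuclear members had another order: siNC replicate 2 was highest in 22 of the 34, and siNC replicate 4 lowest in 19. Measured as the median log2 deviation from each gene's mean over the 8 libraries, the mitochondrial members stood at -0.14, -0.04, -0.38 and 0.15 in siETV4 and at 0.34, 0.03, 0.16 and -0.07 in siNC. The nuclear members stood at -0.10, 0.15, -0.08 and -0.11 in siETV4 and at -0.07, 0.20, 0.17 and -0.17 in siNC. The mitochondrial value minus the nuclear value was thus -0.04, -0.19, -0.30 and 0.26 in siETV4 and 0.41, -0.17, -0.01 and 0.11 in siNC. Libraries of both groups lay on both sides of 0, and the group means of -0.07 ± 0.239 and 0.08 ± 0.245 (SD, n = 4 each) differed by less than those SDs. The median SD within a group, on the log2 scale, was 0.236 for a mitochondrial member and 0.173 for a nuclear one, against 0.152 over the 3788 genes at least as abundant as the least abundant nuclear member.

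**Figure D3:**
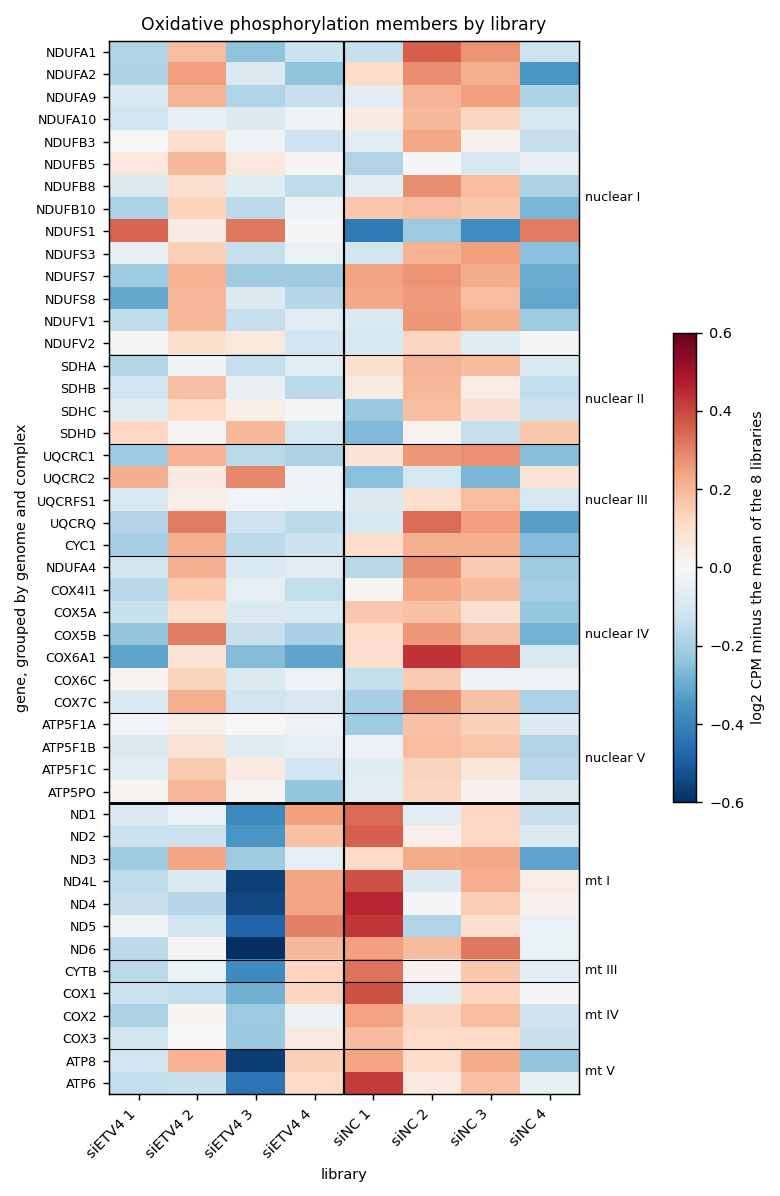
Log2 CPM of each member (rows, by genome and complex) in each library (columns) minus that gene's mean over the 8 libraries; red is higher and blue lower. The mitochondrial block is highest in siNC replicate 1 (11 of 13 genes) and lowest in siETV4 replicate 3 (12 of 13), while most nuclear rows are highest in siNC replicate 2 (22 of 34) and lowest in siNC replicate 4 (19 of 34).

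**Figure D4:**
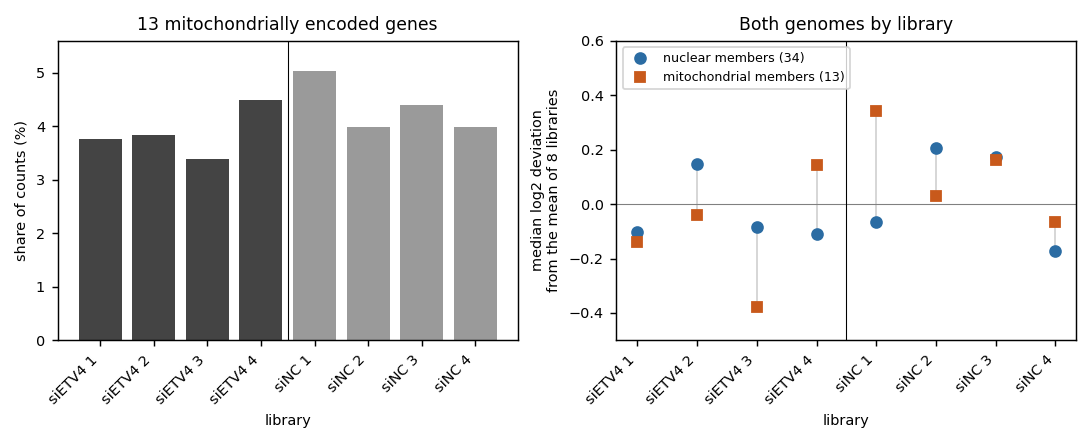
Left, share of counts in the 13 mitochondrial genes (%) in each library. Right, median log2 deviation from the mean of the 8 libraries for the 34 nuclear members (circles) and the 13 mitochondrial members (squares), with a line joining both values of a library. The mitochondrial value lies farthest below the nuclear one in siETV4 replicate 3 (-0.08 nuclear, -0.38 mitochondrial). It lies farthest above in siNC replicate 1 (-0.07 nuclear, 0.34 mitochondrial), and next in siETV4 replicate 4 (-0.11 nuclear, 0.15 mitochondrial).

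In the nuclear part of complex I, 11 of the 14 members had a negative log2 fold change, with a median of -0.11. The extremes were NDUFS1, the large iron-sulfur subunit of the NADH-oxidizing arm, at 0.33 and NDUFS7, an iron-sulfur subunit close to the ubiquinone site, at -0.22. NDUFS1 stood at 126, 102, 123 and 98.5 CPM in siETV4 and at 73.7, 85.2, 76.4 and 123 CPM in siNC. Every siETV4 library lay above siNC replicates 1 to 3, and siNC replicate 4 lay among the highest. The log2 fold change of 0.33 (SE 0.16) had an edgeR adjusted p of 0.419. NDUFS7 stood at 74.5, 99.99, 74.6 and 74.8 CPM in siETV4 and at 102, 104, 101 and 70.6 CPM in siNC. Here siETV4 replicate 2 sat with the siNC libraries and siNC replicate 4 with the siETV4 libraries, and the edgeR adjusted p was 0.527 (SE 0.14).

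NDUFB5, an accessory subunit of the membrane arm, was the single member whose groups did not overlap: 159, 175, 160 and 154 CPM in siETV4 and 135, 152, 143 and 148 CPM in siNC. Its log2 fold change of 0.17 (SE 0.08) had an edgeR adjusted p of 0.425, and groups that do not overlap with siETV4 higher were seen in 2.62% of all genes tested. With GC content and length trends removed its sign turned, to -0.08 (edgeR adjusted p 0.823). NDUFA1, the accessory subunit with the highest level per length among the 14 nuclear members, had a log2 fold change of -0.19 (SE 0.14, edgeR adjusted p 0.566). The flavoprotein subunits NDUFV1 and NDUFV2, where NADH is oxidized, had -0.09 (SE 0.12) and 0.03 (SE 0.10).

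Complex II had 4 members, 2 of each sign, with a median of -0.02. Without siNC replicate 4 the median was -0.07 with 3 negative, and with GC content and length trends removed it was -0.12 with all 4 negative. SDHA, the flavoprotein that oxidizes succinate, stood at 276, 306, 282 and 297 CPM in siETV4 and at 331, 358, 355 and 293 CPM in siNC. Apart from siNC replicate 4, all siNC libraries lay above all siETV4 libraries. The log2 fold change was -0.20 (SE 0.09) with an edgeR adjusted p of 0.389. Pseudogenes nearly identical to SDHA exist, and the counting rule for reads that fit several copies is unknown, so its level is uncertain. The iron-sulfur subunit SDHB, the most abundant of the 4 per length, had -0.07 (SE 0.10), and the membrane anchors SDHC and SDHD had 0.03 (SE 0.10) and 0.11 (SE 0.11). With those trends removed, SDHC and SDHD had -0.12 and -0.11.

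In complex III the pair of core proteins had opposite signs. UQCRC2 stood at 197, 176, 207 and 167 CPM in siETV4 and at 143, 158, 140 and 180 CPM in siNC, with siNC replicate 4 above 2 of the siETV4 libraries. Its log2 fold change was 0.27 (SE 0.11) with an edgeR adjusted p of 0.361. UQCRC1, its partner, had -0.18 (SE 0.13) with an edgeR adjusted p of 0.571. With GC content and length trends removed, UQCRC2 had 0.16 and UQCRC1 -0.05. Over the 23 alternative settings UQCRC2 ranged from 0.0019 to 0.35. The electron carriers of the complex, cytochrome c1 (CYC1) and the Rieske iron-sulfur protein (UQCRFS1), had -0.14 (SE 0.13) and -0.06 (SE 0.09). Over the 5 nuclear members the median was -0.09.

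Complex IV had the member with the smallest p of all 47. COX6A1, the non-muscle form of a subunit at the dimer interface, stood at 194, 257, 202 and 194 CPM in siETV4 and at 259, 327, 312 and 227 CPM in siNC. The siNC values were higher apart from replicate 4, which lay below siETV4 replicate 2. COX6A1 had an estimate of -0.41 (SE 0.13) on the log2 scale, an unadjusted p of 0.0105 and an edgeR adjusted p of 0.291. COX4I1, a regulatory subunit that binds nucleotides and the most abundant nuclear member of the complex per length, had -0.11 (SE 0.11) with an edgeR adjusted p of 0.677. The other nuclear members lay between -0.13 (COX5B) and 0.02 (COX6C). NDUFA4, named for complex I and now assigned to complex IV, had -0.04 (SE 0.13) and was counted here with complex IV. Over the 7 nuclear members the median was -0.11, and 6 were negative.

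The 4 nuclear members of ATP synthase had a median of -0.01, which was -0.12 with GC content and length trends removed. ATP5F1B, the catalytic beta subunit and the most abundant nuclear member per length, stood at 1371, 1541, 1385 and 1405 CPM in siETV4 and at 1422, 1659, 1636 and 1285 CPM in siNC. The siNC libraries enclosed the whole range of siETV4. Its log2 fold change was -0.07 (SE 0.10) with an edgeR adjusted p of 0.757. The alpha subunit ATP5F1A had -0.02 (SE 0.10), the central-stalk subunit ATP5F1C 0.02 (SE 0.10) and the peripheral-stalk subunit ATP5PO 0.00 (SE 0.10). In complexes I, III, IV and V the mitochondrial medians of -0.21, -0.22, -0.22 and -0.23 stood below the nuclear medians of -0.11, -0.09, -0.11 and -0.01. With GC content and length trends removed, the nuclear medians were -0.04 in complex I, -0.03 in complex III, -0.17 in complex IV and -0.12 in complex V. Differences between complexes or genomes were not tested, because their members share the 8 libraries.

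Library composition moved with these values. Over all genes with a known GC content, the Spearman correlation of a gene's deviation with its GC content was -0.641, 0.202, -0.571 and 0.021 in siETV4 replicates 1 to 4 and 0.553, 0.523, 0.631 and -0.598 in siNC replicates 1 to 4, so siNC replicate 4 had the opposite sign to the rest of its group. Across the 34 nuclear members, log2 fold change and GC content had a Spearman correlation of -0.643, and across all genes one of -0.55. All these points come from the same 8 libraries. The 11 nuclear members with the highest GC content (52.4% to 64.5%) had a median of -0.14 and all 11 were negative, and the 11 with the lowest (39.0% to 43.6%) had a median of 0.02 with 4 negative. COX6A1, in the low group by its longest transcript, had the lowest value of all. Across the 13 mitochondrial members (39.6% to 47.7%) the correlation was 0.242.

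With each library's trend with GC content and length removed, 0 members passed by edgeR, where 1.63% of all genes did. The mitochondrial median moved to -0.32 and the nuclear median to -0.10, and the negative members were 13 of 13 and 28 of 34, against 50.6% of all genes. At an unadjusted p under 0.05 stood 11 members against 15.9% of all genes, and 9 of these 11 were mitochondrial. Within the nuclear members the order by GC content turned round: the median was -0.17 in the low group and -0.01 in the high group. Their correlation became 0.657, while that over all genes became 0.00984. Across the mitochondrial members it went from 0.242 to 0.703. The trends were fitted over all genes (-0.55 before removal), and the mitochondrial members had not followed that direction. Whether the fit suits the mitochondrial members was not tested. The sign turned with this setting in several low-GC nuclear members, as in SDHD (0.11 to -0.11), COX6C (0.02 to -0.17) and ATP5F1C (0.02 to -0.15). With GC content taken from the transcript nearest in length to the deposited gene length, in place of the longest, 1 member passed, COX6A1 (log2 fold change -0.31, edgeR adjusted p 0.0154), where 1.78% of all genes did. The spread within groups narrowed for nuclear members (median SD 0.119) and widened for mitochondrial members (median SD 0.309). The part of library composition in the siETV4 against siNC differences was not tested.

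**Figure D5:**
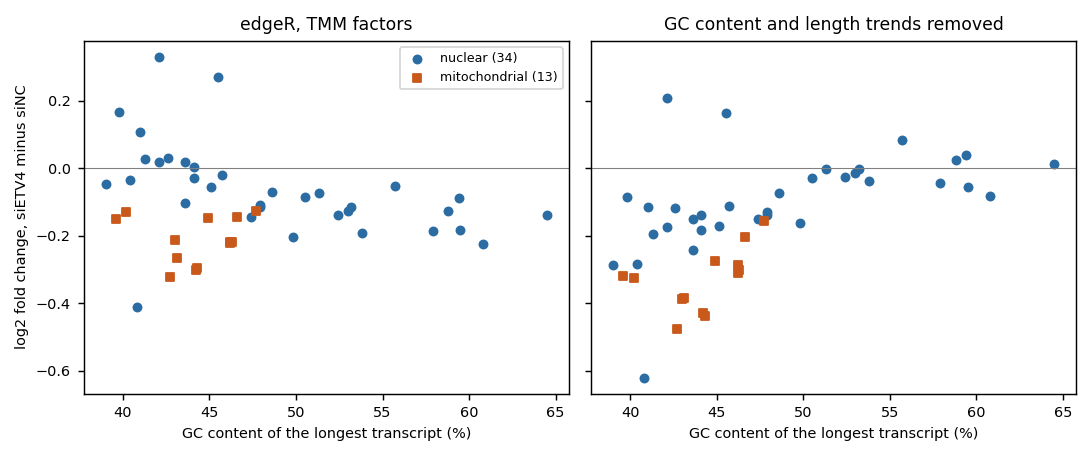
Log2 fold change (siETV4 minus siNC) of the 34 nuclear (circles) and 13 mitochondrial members (squares) against the GC content of the longest transcript (%), with TMM factors alone (left) and with each library's GC content and length trends removed (right). The nuclear correlation goes from -0.643 to 0.657 and the mitochondrial one from 0.242 to 0.703. All 13 mitochondrial points stay below 0 in both panels.

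Leaving out a single control library changed the calls. Without siNC replicate 4, edgeR called 2327 of all genes tested (16.9%) and 6 of the 47 members (12.8%). NDUFS1 (log2 fold change 0.52, edgeR adjusted p 0.0124) and UQCRC2 (0.35, edgeR adjusted p 0.0293) were higher in siETV4, where 12.0% of all genes were called higher. COX6A1 (-0.50, edgeR adjusted p 0.0161), COX2 (-0.29, edgeR adjusted p 0.0375), SDHA (-0.26, edgeR adjusted p 0.0396) and NDUFS7 (-0.34, edgeR adjusted p 0.0488) were lower, where 4.88% of all genes were called lower. With that library left out and the GC content and length trends removed as well, 8 members were called, all lower (17.0%), against 6.32% of all genes called and 3.32% called lower. These were COX6A1 (-0.76, edgeR adjusted p 0.000589), ND3 (-0.48, edgeR adjusted p 0.0132), COX2 (-0.33, edgeR adjusted p 0.0221), COX7C, ATP5F1C, NDUFV2, ATP6 and NDUFB3, the last 5 with edgeR adjusted p values of 0.0381 to 0.0498. COX6A1 and COX2 were called in both fits and the other members in only 1 of them. The 8 members called with the trends removed had GC contents of 39.0% (COX7C) to 46.2% (COX2), below the nuclear members' median of 47.6%. In all 8 libraries the removal turned the nuclear correlation with GC content from -0.643 to 0.657. COX6A1 there had -0.62 with its longest transcript and -0.31 with the one nearest in length. The part of the trend removal in these calls was not tested.

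ETS factors such as ETV4 bind DNA around a GGAA core, and the promoters of several nuclear subunits hold a full consensus, so those promoters are shown. In windows from 250 bases before to 50 bases after each RefSeq start (GRCh38.p14), the letters CCGGAAGT were searched on both strands, where the minus-strand match reads ACTTCCGG. They were found in 1453 of 35116 windows (4.14%) and in 5 of the 31 windows of nuclear members (16.1%). Counted by gene, 5 of the 28 nuclear members with a window held it (17.9%), as did 9.83% of the 10809 tested genes with a window. NDUFB5, SDHC, CYC1, NDUFA4, COX6C and ATP5F1B were not searched. The stretches below run 5′ to 3′ on the strand of the gene and end at the base before the start, except for NDUFS1, whose stretch begins 200 bases before it, and capitals mark the match.
ATP5F1A promoter: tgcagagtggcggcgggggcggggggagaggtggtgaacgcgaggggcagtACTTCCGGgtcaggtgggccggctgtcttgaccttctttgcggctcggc
COX5B promoter: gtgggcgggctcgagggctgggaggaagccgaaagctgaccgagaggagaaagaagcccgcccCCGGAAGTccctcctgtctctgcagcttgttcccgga
NDUFS1 promoter: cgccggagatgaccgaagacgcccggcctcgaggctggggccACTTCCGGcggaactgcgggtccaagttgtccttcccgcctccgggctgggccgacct
SDHD promoter: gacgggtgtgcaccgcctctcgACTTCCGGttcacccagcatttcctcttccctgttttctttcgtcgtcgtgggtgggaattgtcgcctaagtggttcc
UQCRQ promoter: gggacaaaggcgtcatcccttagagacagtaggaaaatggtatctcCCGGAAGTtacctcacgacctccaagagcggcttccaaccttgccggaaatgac
The ATP5F1A stretch is chr18:46098297-46098396 (minus strand, at a start inside the gene), COX5B chr2:97645962-97646061 (plus), NDUFS1 chr2:206159545-206159644 (minus), SDHD chr11:112086773-112086872 (plus) and UQCRQ chr5:132866542-132866641 (plus). The match in UQCRQ begins at position -54 from the start, that in COX5B at -37 and that in SDHD at -78. A further COX5B match begins at -5 and runs across the start, so only its first bases close the printed stretch, in lower case. The log2 fold changes of the 5 genes were 0.33 (NDUFS1), 0.11 (SDHD), -0.02 (ATP5F1A), -0.09 (UQCRQ, a small subunit of complex III that binds near ubiquinone) and -0.13 (COX5B, a zinc-binding subunit of complex IV), and none passed the threshold. Over all tested genes with a window the median log2 fold change was -0.01 with the match and -0.01 without it, and 0.0942% and 0.164% of the genes were called. A match of letters is a description of the sequence and not a binding site.

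The rest of the pathway gave the same count of 0 called genes by edgeR, against 0.236% of all genes. The 23 other subunits of complex I had a median log2 fold change of -0.09 with 0 at an unadjusted p under 0.05. The 5 genes listed with complex III had -0.05 with 0, and they include cytochrome c (CYCS), which is not a subunit. The 4 other subunits of complex IV had a median of -0.10 and the 14 of complex V one of -0.08, again with 0 at an unadjusted p under 0.05. Of the listed paralogs of subunits, 2 of 8 were abundant enough to be tested, COX7A2L and NDUFA4L2. COX7A2L had a log2 fold change of -0.04 (SE 0.12). NDUFA4L2, the hypoxia-inducible paralog of NDUFA4, averaged 3.21 CPM ± 1.32 over the siETV4 libraries and 3.69 CPM ± 1.13 over the siNC libraries (SD, n = 4 each).

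The 52 assembly factors had a median of -0.02 with 6 at an unadjusted p under 0.05, a share close to the 12.6% of all genes. The most abundant per length, HIGD2A, which helps to join complexes into supercomplexes, had a log2 fold change of -0.19 (SE 0.12). COA1, an assembly factor of complexes I and IV named here after its values were seen, stood at 52.4, 50.9, 48.8 and 46.2 CPM in siETV4 and at 59.5, 73.2, 68.8 and 68.7 CPM in siNC. Its groups did not overlap, as in 6.55% of all genes tested. Its log2 fold change of -0.45 (SE 0.10) had an edgeR adjusted p of 0.127, the lowest in the list. Without siNC replicate 4 it was -0.44 with an edgeR adjusted p of 0.0161, in a fit that called 4.88% of all genes lower.

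The lists of mitochondrial biogenesis regulators and of mitochondrial RNA processing genes had medians on the positive side. The 22 tested nuclear regulators of mitochondrial biogenesis had a median log2 fold change of 0.09, with 14 positive and 2 at an unadjusted p under 0.05, and the 20 tested genes of mitochondrial RNA processing and stability one of 0.17, with 14 positive and 1 at an unadjusted p under 0.05. With GC content and length trends removed these medians were 0.01 and 0.03. SSBP1, which coats single-stranded mitochondrial DNA, had a log2 fold change of 0.22 (SE 0.09), and SLIRP, a partner of LRPPRC in stabilizing mitochondrial messenger RNA, one of 0.15 (SE 0.12), and with those trends removed they were -0.04 and -0.06. The 76 tested mitochondrial ribosomal proteins had a median of -0.06 with 8 at an unadjusted p under 0.05, and MRPL41, the most abundant of them per length, had -0.31 (SE 0.14, edgeR adjusted p 0.393). The 13 genes of the tricarboxylic acid cycle had a median of -0.10 with 1 at an unadjusted p under 0.05, and MDH2, the mitochondrial malate dehydrogenase, had -0.10 (SE 0.10). The lists hold no gene past the threshold in the full set of 8 libraries. When siNC replicate 4 was left out, edgeR called 12.0% of all genes higher and 4.88% lower. In that fit it called 9 of the 76 mitochondrial ribosomal proteins higher and 2 lower, 5 of the 52 assembly factors higher and 1 lower, and 5 of the 22 regulators higher and 1 lower. Of the 20 RNA processing genes 4 were called higher and 0 lower, and of the 13 tricarboxylic acid cycle genes 2 higher and 1 lower. Among the other subunits 1 of complex I was called higher and 1 of complex V lower. Cytochrome c (CYCS), listed with complex III, was called higher as well (log2 fold change 0.35, edgeR adjusted p 0.0319).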

How the data were processed

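Total RNA from 8 HaCaT cultures was sequenced, and groups and replicate numbers come from the sample titles. The authors deposited raw counts per gene symbol and FPKM values for the same symbols. For 20584 of the 20585 genes above 0, the deposited FPKM equals the count divided by the library total and by a gene length shared by all 8 libraries (relative tolerance 1e-06), so FPKM was used only for levels between genes and in alternatives. The build hg38 and R 3.2.0 are named per the submitters' processing notes. The aligner, counter, annotation and strandedness were not given in the sources.

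The tests on counts used edgeR 4.0.16 (R 4.3.3): filterByExpr (minimum count 10), TMM factors, the siRNA as the only term, a quasi-likelihood test and Benjamini-Hochberg adjustment over 13572 genes, with a call at an adjusted p under 0.05. CPM uses TMM-scaled library sizes. Standard errors are the log2 fold change divided by the root of the F statistic. GC content was that of the longest GENCODE v29 transcript (94.1% of tested genes, all 47 members), and trends were removed by offsets from splines with 5 degrees of freedom. No 2 libraries agreed within sampling noise (chi-square per degree of freedom at least 10.0). At the mean depth 1 CPM is 40.1 counts. The test was also run on simulated counts. These held no trend with GC content by library, so they cannot check the test under such trends.

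The alternatives were RLE factors, library size alone, sizes from nuclear genes, DESeq2 1.42.0, no filter, a minimum of 1 CPM in 4 libraries, limma-voom and limma-trend on log2(FPKM + 1 or 0.1) with limma 3.58.1, the replicate number as a block, removal of GC content and length trends, an adjusted p under 0.1, and each library left out. The trends with siNC replicate 4 left out, and GC content from the transcript nearest in length, were added after the data had been seen.

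The members, gene lists and rules were chosen with earlier results of these data known. Named genes are, per complex, the nuclear member with the smallest p and the one with the highest FPKM, the highest and lowest log2 fold changes, the 3 mitochondrial members with the smallest p, the 2 with the highest FPKM, ND6, and called members. From each list of other genes come called members or else its most abundant ones, of which only some are named. Other members are named for their role.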

Additional observations from a re-analysis of the deposited data

Results flagged for a closer look

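Of 102 group values (a gene, or a summary over genes, in the 4 libraries of a group), 12 had a single library far from the other 3, by Dixon's test of the gap divided by the range. Chance alone flags about 1 in 20 such groups when they are independent, which these are not, because the members share their libraries. All flags fall on siETV4 replicate 2 or siNC replicate 4. Within its group, siETV4 replicate 2 was highest in 30 of the 34 nuclear members, and siNC replicate 4 lowest in 24. The share of all genes tested that the rule flags was not counted. An excess particular to these members therefore cannot be read from the 12 flags. Every flag falls on nuclear members, none on a mitochondrial one.

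In siETV4 replicate 2 the median log2 deviation of the 34 nuclear members was 0.15, against -0.11 to -0.08 in the other siETV4 libraries (gap over range 0.900). The single members that stood out high in that library were NDUFS7 (99.99 CPM against 74.5 to 74.8, 0.988), COX7C (306 CPM against 244 to 249, 0.922), UQCRQ (169 CPM against 121 to 125, 0.904) and UQCRC1 (256 CPM against 191 to 198, 0.886). The rest were COX6A1 (257 CPM against 194 to 202, 0.871), NDUFA4 (229 CPM against 182 to 189, 0.864), CYC1 (552 CPM against 415 to 434, 0.858) and COX5B (231 CPM against 158 to 170, 0.838).

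In siNC replicate 4 the members that stood out low were the complex I subunits NDUFB10 (76.2 CPM against 103 to 105, 0.946), NDUFS7 (70.6 CPM against 101 to 104, 0.903) and NDUFS8 (104 CPM against 147 to 154, 0.854). The correlation of a gene's deviation with its GC content over all genes was 0.202 in siETV4 replicate 2 and -0.598 in siNC replicate 4. The other siETV4 libraries had -0.641, -0.571 and 0.021, and the other siNC libraries 0.553, 0.523 and 0.631. The part of this in the values above was not tested.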

How the results depend on the processing

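All 13 mitochondrial members kept a negative log2 fold change in all 23 alternatives, and 15 of the 34 nuclear members kept their sign in all of them. The alternatives draw on the same 8 libraries and the mitochondrial members move together, so these signs are not separate observations. Genes called over all genes were 32 in the full set and 9 to 2327 with each library left out in turn, the highest without siNC replicate 4, and members called were 0 to 6. The other counts of genes called were 223 with DESeq2, 59 on FPKM with a pseudocount of 1 and 59 with 0.1, 60 at an adjusted p under 0.1, 54 with no filter, 208 with GC content and length trends removed, and 227 with GC content from the transcript nearest in length. In that last setting 1 member, COX6A1, was called (log2 fold change -0.31, edgeR adjusted p 0.0154), while with the longest transcript it had -0.62 and an edgeR adjusted p of 0.0613. Without siNC replicate 4 and with the trends removed, 816 genes and 8 members were called, and the median was -0.42 over the mitochondrial members, -0.18 in complex II and -0.19 in complex V. With the trends removed alone, the nuclear members of complex V had a median of -0.12. The labels state no pairing of cultures by replicate number. Deviations of same-numbered libraries had correlations of -0.0896, 0.296, -0.138 and -0.187, and replicate 2 alone correlated best with its own number. These deviations also carry each library's trend with GC content, so they cannot show whether the cultures were paired. With the number as a replicate block 4 genes were called, and 96 with the block and the trends removed, with 0 members in either.

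The sign turned in some named genes. With the trends removed, with the replicate block added to that, with the nearest transcript in place of the longest, and with siNC replicate 4 left out beside the trends removed, in this order, the log2 fold changes were -0.15, -0.14, -0.16 and -0.23 for ATP5F1C, -0.17, -0.18, -0.19 and -0.24 for COX6C, and -0.11, -0.11, -0.13 and -0.14 for SDHD. They were -0.084, -0.078, -0.092 and -0.21 for NDUFB5, 0.011, 0.011, 0.0081 and 2.71e-05 for CYC1, and -0.042, -0.036, -0.048 and -0.16 for SSBP1. SLIRP had -0.062, -0.058 and -0.16 (its sign held with the nearest transcript), and NDUFA1 had 0.014 in the last setting only. With libraries left out in turn, ATP5F1C ranged from -0.034 to 0.066, COX6C from -0.026 to 0.076 and NDUFA4L2 from -0.48 to 0.010. The causes were not tested.

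With 4 libraries a group and standard errors near 0.1, log2 differences of the size seen in most members could not be told from 0. A share of counts with the mitochondrial ribosomal RNAs added was not run, as no tested symbol matched them.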
